A study of Mus musculus with 14 samples.

Results

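The genes described here encode the extracellular side of the Wnt pathway. They are every gene name on the array that begins with Wnt, Fzd, Sfrp or Dkk followed by a digit, together with Wif1, Frzb, Lrp5, Lrp6, Lgr5, Axin2, Rspo1, Rspo2 and Rspo3. This name rule, which used no measured value, took 46 of 36413 gene names: 19 Wnt ligands, 3 R-spondins, 13 receptors, 10 antagonists and the feedback gene Axin2.

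Wnt proteins are secreted lipid-modified ligands that bind Frizzled receptors (Fzd). With the co-receptors Lrp5 and Lrp6 they stabilise beta-catenin, and without them, through Ror and Ryk receptors, they drive planar polarity and cell movement. R-spondins bind Lgr receptors and raise the number of Frizzleds at the surface. Secreted frizzled-related proteins (Sfrp, Frzb) and Wif1 bind Wnt ligands, and most Dickkopf proteins (Dkk) block Lrp5 and Lrp6. In mammary tissue and in breast tumors, fibroblasts are a known source of Wnt ligands, R-spondins and their secreted inhibitors.

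Gene expression was measured on 14 one-colour arrays in 7 groups of 2. D2A1 cells, a mouse breast cancer line, were grown alone, with wild-type (WT, Hsf1 +/+) mouse embryonic fibroblasts (MEFs), or with Hsf1 null (Hsf1 -/-) MEFs. Hsf1 encodes the heat shock transcription factor. WT and null MEFs were likewise grown alone or with D2A1 cells, and after 72 hours the cell types were separated by fluorescence-activated sorting. All cultures were grown in DMEM with fetal calf serum. When D2A1 cells were to be profiled, their MEF partners had first received mitomycin C, which blocks cell division, at 10 ug/ml for 2 hours, and these mitomycin-treated MEFs were not themselves measured. The labels give neither the embryos nor the number of isolates behind the MEFs, so genotype and MEF isolate cannot be told apart. Since nothing states that the A and B arrays came from separate cultures, a p-value here reflects the spread between these arrays and no more, and that spread may be technical.

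Levels are the authors' log2 values, printed as A array then B array. All A arrays lay on 1 slide and all B arrays on another. Differences are given ± SE from limma, with n = 2 arrays in each group and p-values adjusted by Benjamini-Hochberg over all 25853 genes tested. A gene was called changed at an adjusted p under 0.05. The SE of a gene comes from its spread in all 7 groups, so an array that stands apart widens it everywhere. Every call on a member between 2 groups had the same sign on both slides. All sizes, the lower bounds on folds included, hold on the scale of the deposited values. On the 12 arrays with usable scanner files, 62 of the 129 calls on members moved by over 1.5 times with scaling to the 75th percentile (61 larger, 1 smaller) and 49 with normexp (all smaller).

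Some arrays stood apart, and in sorted cells genes typical of the other cell type read higher than in cells grown alone. How much of this was RNA of the other cells was not tested. The scanner files of D2A1 with null MEFs A and D2A1 alone A were faulty and their flags were not used; in the other 12 files between 53.1% and 63.4% of spots were well above background. A set of 145 genes at least 32-fold higher in both MEF types than in D2A1 cells grown alone, members left out, had gained a median of 7.54% and 7.40% of the level of co-cultured WT MEFs in D2A1 cells sorted from them. In D2A1 cells sorted from null MEFs the medians were 9.76% on A and 24.9% on B of the level of co-cultured null MEFs. In the other direction, 55 genes typical of D2A1 cells had gained 33.5% and 32.2% of the D2A1 level in WT MEFs after co-culture, against 5.86% and 6.89% in null MEFs. On the array of co-cultured null MEFs A, genes of the WT stock read higher than on B. A set of 65 genes at least 32-fold higher in WT than in null MEFs grown alone had gained 8.53% of the level of co-cultured WT MEFs there, against 0.0379% on the B array. In bulk samples, fewer cells of a type and less RNA per cell cannot be told apart.

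Of the marker lists, all 15 fibroblast markers were well above background in both MEF types grown alone, with summed linear levels of 1070000 to 1080000 in WT and 531000 to 568000 in null MEFs. In D2A1 cells grown alone 9 of the 15 were, with Dcn, Lum, Thy1, Fap, Postn and Twist2 not well above background, and the sum was 253000 to 290000. Most of that sum was S100a4, at 17.77 and 17.97. Against WT MEFs 14 of the 15 were called lower in D2A1 cells and 1 higher, and against null MEFs 11 lower and 2 higher. Of 12 epithelial markers 7 were well above background in D2A1 cells alone, 7 with WT MEFs and 9 with null MEFs, but Epcam and Cdh1, which define epithelial cells, were not in any D2A1 group. Of 8 macrophage and leukocyte markers 6 were well above background in D2A1 cells alone. The list summed there to 9510 to 9860, against 1200 to 1230 in WT MEFs alone, 4780 to 5230 in WT MEFs after co-culture and 746 to 771 in null MEFs alone. Of the 7 tested, 2 were called higher and 1 lower in D2A1 cells than in WT MEFs alone, with a median difference of 0.21. Against null MEFs 4 were higher and 0 lower, with a median of 0.40. Endothelial sums lay between 307 and 373 in all 7 groups, and Cdh5, Tek and Tie1 were not well above background in D2A1 cells. Hsf1 itself was 12.01 and 11.69 in WT MEFs and 10.07 and 9.97 in null MEFs grown alone, a difference of 1.83 ± 0.12 (limma, adjusted p = 1.11e-06). The Hsf1 probe was well above background in the null MEFs, and the labels do not say whether it lies in the deleted part.

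Of the 46 members, 33 were well above background on both arrays of at least 1 group and were tested: 11 ligands, all 3 R-spondins, 12 receptors and 7 antagonists. The other 13 were Wnt2, Wnt2b, Wnt3, Wnt3a, Wnt7a, Wnt8a, Wnt8b, Wnt9b, Fzd10, Sfrp4, Dkk1, Dkk4 and Axin2, with log2 values between 4.39 and 6.45 and a median of 5.09. Among them are Wnt3a and Wnt2, typical beta-catenin ligands, and Axin2, the usual transcriptional readout of beta-catenin, so no level of Axin2 could be compared. No member was saturated on any array. Because a member enters the test through any group where it is bright, members that passed the filter are not a sample of all members.

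The probes behind the members that the results turn on are shown by their first 30 of 60 bases, 5′ to 3′, with the mm9 position of the whole probe as the files give it, so that a reader can place what was measured. Fzd7 and Wnt16 each had 2 probes, and both are shown because the deposited value of such a gene follows the mean of its probes.
Dkk3, chr7:119259556-119259615: gcctgtaaatcgcatctgaagataccacag
Sfrp2, chr3:83577864-83577923: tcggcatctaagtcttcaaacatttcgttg
Wif1, chr10:120537079-120537138: ggctgatatctactcttccttttaggtttt
Wnt6, chr1:74831461-74831520: ttcctcagaattactgggatggatgggtga
Wnt7b, chr15:85366896-85366955: tctgaagatttactggagaccccacggctc
Fzd4, chr7:96557478-96557537: acacacgtaaggtatccagtggatttctct
Fzd7, chr1:59541367-59541426: agccccgactttacagtcttcatgatcaag
Fzd7, chr1:59543192-59543251: aagggaaggtgaacttcaaagtgattctgg
Wnt16, chr6:22241135-22241194: aaacaccacaggaaaagaaagcagagtcct
Wnt16, chr6:22247804-22247863: acggagtttccggctcctgtgctgtgaaaa

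The first question was which cell type made which part of the pathway. Of the 33 members tested, 24 were lower in D2A1 cells than in WT MEFs and 4 were higher, where 23.6% and 27.8% of all genes tested were called lower and higher. The median difference was -2.65 over the members and 0.08 over all genes. Against null MEFs, 15 members were lower and 4 higher, where the shares over all genes were 25.4% and 27.3%, and the medians were -0.33 and 0.07. Both contrasts share the D2A1 arrays.

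Wnt5a and Wnt5b, the ligands best known for beta-catenin-independent signalling, were among the widest contrasts. Wnt5a was 6.12 and 6.38 in D2A1 cells alone, 13.44 and 13.43 in WT MEFs and 11.49 and 11.59 in null MEFs. That is 7.18 ± 0.29 lower in D2A1 cells than in WT MEFs (limma, adjusted p = 1.58e-08) and 5.29 ± 0.29 lower than in null MEFs. Wnt5b was 6.96 and 7.16 in D2A1 cells, 12.36 and 12.31 in WT MEFs and 13.04 and 13.20 in null MEFs, so for this ligand the null MEFs were the highest group. Rspo3, a strong amplifier of Wnt signalling, was not well above background in D2A1 cells (5.42 and 5.17) and was high in both MEF types (13.67 and 13.72 in WT, 13.45 and 13.37 in null). It was at least 339-fold lower in D2A1 cells than in WT MEFs and at least 277-fold lower than in null MEFs. Rspo2 was the R-spondin that D2A1 cells did express, at 12.60 and 12.79, below WT MEFs (15.47 and 15.33) and above null MEFs (12.03 and 11.91). The second of these differences, 0.72 ± 0.25 (limma, adjusted p = 0.0332), did not pass without any 1 of the 4 arrays (0.0629 to 0.136).

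The receptors divided by member. Fzd1 was 5.93 and 6.45 in D2A1 cells against 12.33 and 12.45 in WT MEFs and 12.10 and 11.82 in null MEFs, a gap of 6.20 ± 0.33 to WT MEFs. Fzd8 was at least 90.0-fold lower in D2A1 cells than in WT MEFs, and Fzd2, Fzd4, Fzd5, Lrp5 and Lrp6 were lower by 0.45 to 2.85. Lgr5, an R-spondin receptor, was not well above background in D2A1 cells or in null MEFs, and at least 8.98-fold lower in D2A1 cells than in WT MEFs. Fzd3 and Fzd6 went the other way. Fzd6 was 10.79 and 11.29 in D2A1 cells, 9.39 and 9.82 in WT MEFs and 9.62 and 9.86 in null MEFs, which is 1.44 ± 0.25 above WT MEFs and 1.30 ± 0.25 above null MEFs. Fzd9 was 0.66 ± 0.16 higher than in WT MEFs. Wnt7b, a ligand of epithelial cells, was the one ligand higher in D2A1 cells than in both MEF types: 7.64 and 7.67 against 5.46 and 5.59 in WT and 5.54 and 5.88 in null MEFs, by 2.13 ± 0.13 and 1.95 ± 0.13 (limma, adjusted p = 2.94e-07 and 5.68e-07).

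Of the 7 antagonists tested, 5 were lower in D2A1 cells than in WT MEFs and 2 were lower than in null MEFs. Sfrp1, Dkk2, Dkk3 and Wif1 were not well above background in D2A1 cells grown alone and were at least 16.5, 18.9, 1260 and 13.9 times lower than in WT MEFs. Sfrp2 was 5.59 and 9.64 in D2A1 cells alone, so the 2 arrays lay far apart, against 17.29 and 17.35 in WT MEFs. Of 15 fibroblast markers 10 read higher on the same B array and 5 lower, with Col3a1 at 5.32 and 6.30, Postn at 4.74 and 5.61, Thy1 at 4.99 and 5.72 and Dcn at 5.26 and 5.08; the part of MEF RNA in the Sfrp2 value was not tested. The remaining members lower in D2A1 cells than in WT MEFs were Rspo1 (at least 77.3-fold), Wnt10b (at least 7.33-fold), Wnt6 (at least 6.26-fold), Wnt10a (at least 2.91-fold), Wnt4 (-4.11 ± 0.26), Rspo2 (-2.71 ± 0.25), Wnt11 (-1.39 ± 0.17) and Wnt9a (-0.79 ± 0.14). Against null MEFs they were Wnt5b (-6.06 ± 0.27), Fzd1 (-5.77 ± 0.33), Wnt4 (-2.84 ± 0.26), Fzd4 (-2.56 ± 0.18), Fzd2 (-1.78 ± 0.15), Wnt11 (-1.57 ± 0.17), Lrp6 (-0.88 ± 0.17), Fzd7 (-0.73 ± 0.25) and Wnt16 (-0.33 ± 0.11), with Fzd8 at least 13.6-fold, Frzb 3.4-fold, Rspo1 3.01-fold and Sfrp1 1.7-fold lower. Fzd3 was 0.93 ± 0.13 higher in D2A1 cells than in WT MEFs and 0.39 ± 0.13 higher than in null MEFs. Wnt1 and Sfrp5 passed in none of the 10 comparisons; Wnt1 lay between 6.83 and 7.31 and Sfrp5 between 5.35 and 6.10 on all 14 arrays. Leaving out 1 array ended the call of Lrp5 against WT MEFs (without D2A1 alone B or WT alone A, adjusted p = 0.0645 and 0.0617). Against null MEFs it ended those of Fzd3 (without D2A1 alone B or null alone A, 0.125 to 0.175), Fzd7 (without D2A1 alone A or B or null alone A, 0.0799 to 0.22) and Wnt16 (without D2A1 alone A or B or null alone B, 0.0555 to 0.159).

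**Figure D1:**
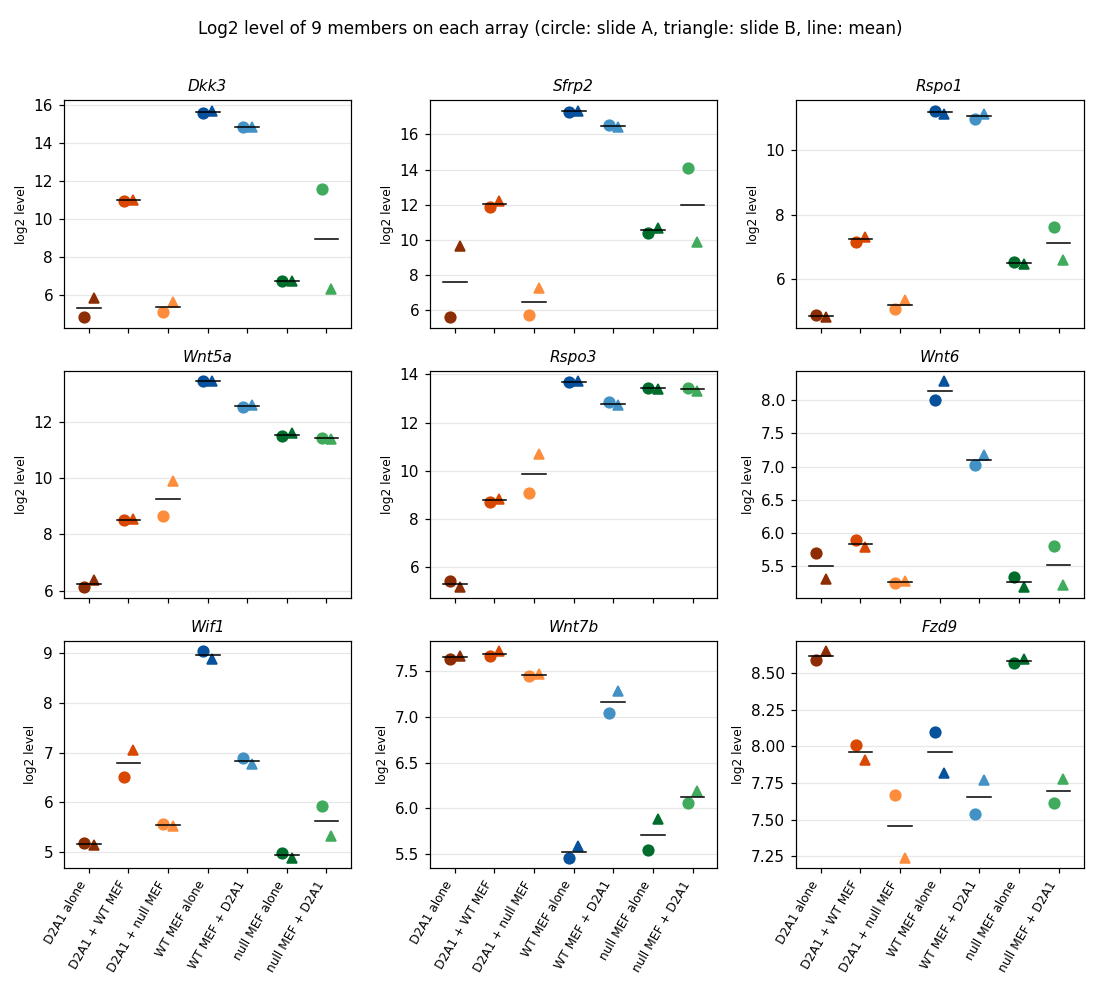
Log2 level of 9 members on each of the 14 arrays, by group (circles slide A, triangles slide B, line the mean of 2; each panel has its own axis). Dkk3, Sfrp2 and Rspo1 were highest in WT MEFs, and on the A array of co-cultured null MEFs Dkk3 read 11.55 against 6.32 on B.

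More members differed between WT and null MEFs than changed with co-culture in either, and the same order held over all genes tested. Grown alone, 21 of the 33 members differed: 16 were higher in WT MEFs and 5 were lower, against 15.9% of all genes tested called higher and 17.9% called lower. Of the 7 antagonists tested 5 were higher in WT and 1 lower, of the 3 R-spondins 2 were higher, of the 11 ligands 6 were higher and 2 lower, and of the 12 receptors 3 were higher and 2 lower. The median difference was 0.43 over the members and -0.03 over all genes.

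Dkk3, a Dickkopf family member with no settled part in Wnt signalling, was 15.55 and 15.67 in WT MEFs and 6.72 and 6.73 in null MEFs. The difference of 8.88 ± 1.18 (limma, adjusted p = 0.000169) equals 471-fold. Sfrp2 was 17.29 and 17.35 in WT MEFs and 10.41 and 10.69 in null MEFs, a difference of 6.77 ± 1.34 (adjusted p = 0.0025). For both genes the arrays of one genotype lay close together and far from those of the other, and the wide SEs come from other groups. Wif1 was 9.04 and 8.89 in WT MEFs and not well above background in null MEFs (4.98 and 4.89), at least 16.3-fold higher. Dkk2 was at least 16.1-fold higher, and Sfrp1 was higher by 3.28 ± 0.15. Frzb, which like the Sfrps binds Wnt ligands, was the antagonist that went the other way: 5.38 and 5.45 in WT MEFs, not well above background, and 6.78 and 6.60 in null MEFs, at least 2.42-fold higher in null.

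Among the R-spondins, Rspo1 was 11.22 and 11.13 in WT MEFs and 6.54 and 6.45 in null MEFs, 4.68 higher on each slide (± 0.25, limma, adjusted p = 2.59e-07). Rspo2 was higher by 3.43 ± 0.25. Rspo3 was 0.29 ± 0.37 apart, which did not pass. Lgr5, the receptor that R-spondins bind, was 8.11 and 8.03 in WT MEFs and not well above background in null MEFs (4.66 and 4.64), at least 10.0-fold higher in WT. Among the ligands, Wnt6 was at least 7.37-fold and Wnt10a at least 3.04-fold higher in WT. On the scanner arrays these differences passed with both scalings but their sizes moved: Lgr5 was 6.34 higher with the 75th percentile and 2.07 with normexp, Wnt6 5.04 and 1.91, and Wnt10a 4.62 and 1.14, against 3.42, 2.88 and 1.60 in the deposited values. Wnt10b, Wnt5a, Wnt4 and Wnt9a were higher by 2.59 ± 0.19, 1.90 ± 0.29, 1.27 ± 0.26 and 0.95 ± 0.14. Fzd8 was higher by 2.73 ± 0.26 and Fzd5 by 0.90 ± 0.16.

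The members lower in WT than in null MEFs were closer to the spread. Wnt5b differed by -0.78 ± 0.27 (limma, adjusted p = 0.0459), Fzd9 by -0.63 ± 0.16, Fzd3 by -0.54 ± 0.13 and Wnt16 by -0.36 ± 0.11. The call of Wnt5b was lost without any 1 of the 4 arrays (adjusted p = 0.104 to 0.185), that of Wnt16 without WT alone B, null alone A or null alone B (0.0557 to 0.222), that of Fzd9 without WT alone B or null alone B (0.0533 and 0.0885) and that of Fzd3 without null alone B (0.0668). For Wnt16 the probes disagreed on the 12 sound scanner arrays: the one at 22241135, well above background on 5 of 12 arrays, gave -2.55, and the one at 22247804, well above background on all 12, gave -0.03. For Fzd5 the 2 probes gave 1.69 and 0.76.

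**Figure D2:**
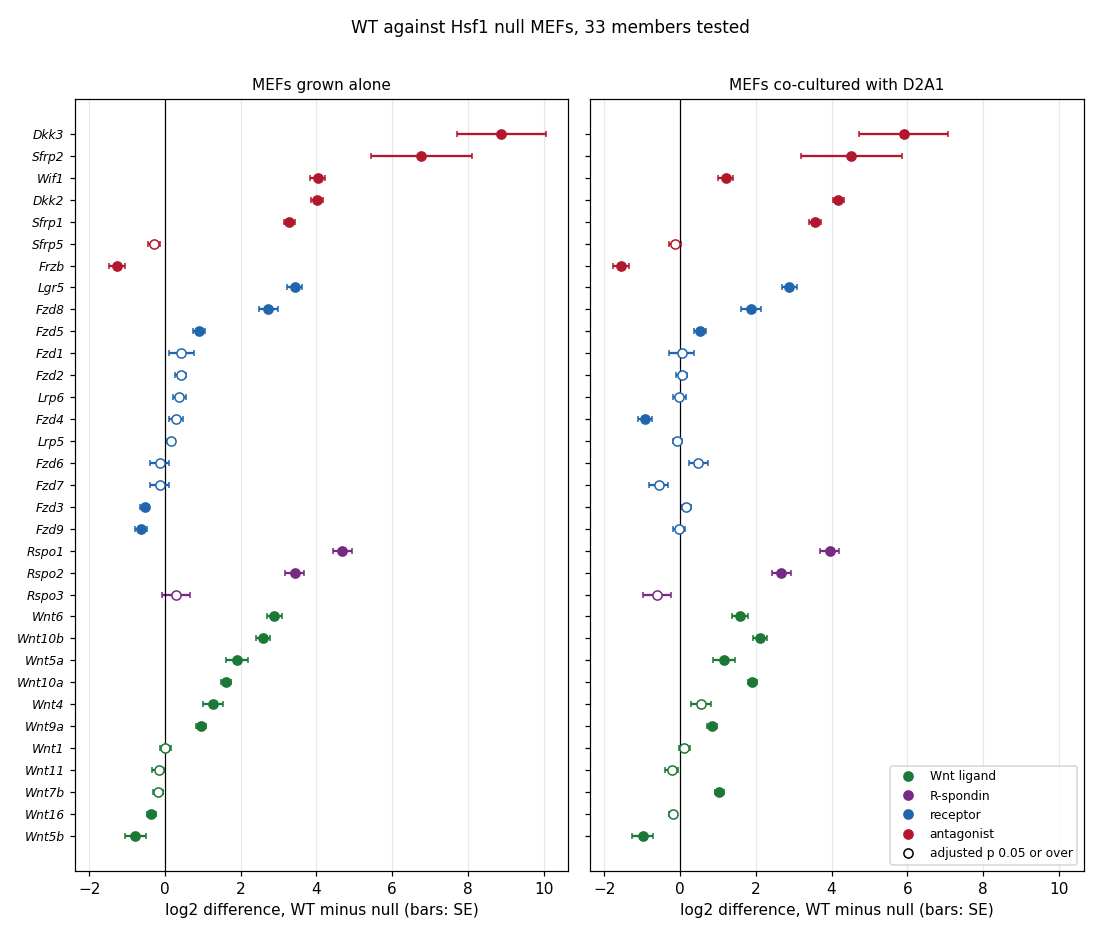
Log2 difference between WT and Hsf1 null MEFs (WT minus null, bars SE of the fit) for the 33 tested members, grouped by role, grown alone (left) and after co-culture with D2A1 cells (right); filled points have an adjusted p under 0.05. In both panels 16 members pass to the right of 0, with Dkk3 at 8.88 and 5.90, and Frzb lies to the left at -1.27 and -1.56.

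After co-culture with D2A1 cells 19 members differed between the MEF genotypes, 16 higher and 3 lower in WT, where 14.8% of all genes were called higher and 14.8% lower. Dkk2 (4.18 ± 0.15), Rspo1 (3.95 ± 0.25), Sfrp1 (3.56 ± 0.15), Rspo2 (2.67 ± 0.25), Wnt10b (2.11 ± 0.19) and Fzd8 (1.87 ± 0.26) were again higher in WT, and so were Fzd5 (0.52 ± 0.16), Wnt5a (1.15 ± 0.29) and Wnt9a (0.84 ± 0.14). Lgr5 was at least 6.79-fold and Wnt10a at least 3.77-fold higher. Frzb was at least 2.95-fold higher in null MEFs, and Wnt5b (-0.99 ± 0.27) and Fzd4 (-0.93 ± 0.18) were lower in WT. Wnt7b, which did not pass between the genotypes alone, was higher in WT by 1.04 ± 0.13.

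The A array of co-cultured null MEFs, on which genes of the WT stock read higher, gave Dkk3 at 11.55 and Sfrp2 at 14.07, while the B array gave 6.32 and 9.86. Without that A array, Dkk3 was 8.51 higher in WT (adjusted p = 4.27e-07) instead of 5.90 ± 1.18, and Sfrp2 6.62 higher (0.00403) instead of 4.52 ± 1.34. Without the B array they were 3.29 (0.000142) and 2.41 higher, and Sfrp2 did not pass (0.211). Wif1 was 1.21 ± 0.20 higher in WT with both arrays, 1.51 without A and 0.91 without B. Wnt6 was 1.58 ± 0.20 higher, and 1.88 and 1.28. The count was 17 members without A and 16 without B. Leaving out any 1 of the 4 arrays ended the call of Wnt5a (adjusted p = 0.0505 to 0.0713), and leaving out either WT array ended those of Sfrp2, Wnt5b and Fzd5 (for these 3, 0.0597 to 0.211 over the arrays that ended them, among them null B for Sfrp2 and Wnt5b and null A for Fzd5).

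Because Hsf1 binds heat shock elements, the promoters of members, called or not, were searched for the letters of such an element. The 250 bases before a start site were taken from RefSeq (build GRCm38.p6), which gave 32 windows for 29 of the 46 members. Each pattern was searched on both strands, and the 2 heat shock patterns are their own reverse complements. GAANNTTC occurs in 6.69% of all 32851 windows; of the member windows that hold it, that of Wnt5b is given here. The second, TTCNNGAA, occurs in 7.17% of all and in 1 of the 32 (Wnt5b). The TCF/LEF letters ATCAAAG occur in 3.21% of all windows and in 2 of the 32 (Wnt11 and Wnt5b). The windows of Sfrp2 and Wif1, higher in WT MEFs, hold none of these letters and are shown whole, with the GC box letters GGGCGG (32.7% of all windows, 23 of the 32) in capitals. The stretches of Wnt5b, which was lower in WT MEFs, are shown around each heat shock match, with the element letters in capitals. Both matches lie in the same Wnt5b window, and the other windows of Wnt5b hold neither heat shock pattern. The TCF/LEF letters of Wnt5b lie in another window, which is not shown. A match is a description of the sequence, not of binding.
Sfrp2, chr3:83766071-83766320, plus strand: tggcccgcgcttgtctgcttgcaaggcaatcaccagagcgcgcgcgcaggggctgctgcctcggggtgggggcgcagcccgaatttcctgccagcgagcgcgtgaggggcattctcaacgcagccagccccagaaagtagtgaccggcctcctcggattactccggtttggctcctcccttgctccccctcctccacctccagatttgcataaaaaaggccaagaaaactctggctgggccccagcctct
Wif1, chr10:121033754-121034003, plus strand: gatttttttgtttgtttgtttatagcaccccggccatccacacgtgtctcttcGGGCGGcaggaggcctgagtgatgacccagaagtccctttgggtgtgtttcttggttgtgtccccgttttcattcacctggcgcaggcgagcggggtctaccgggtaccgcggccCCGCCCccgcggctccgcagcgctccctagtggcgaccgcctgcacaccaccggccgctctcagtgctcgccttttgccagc
Wnt5b, chr6:119467231-119467260, minus strand: ctctgccaagaGAAGGTTCaaggtctaaca
Wnt5b, chr6:119467425-119467454, minus strand: cagctcgactgTTCTGGAAaccttaatgtc

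The design then asked what co-culture did to each MEF type. In WT MEFs 7 members changed. Wnt7b and Wnt10a rose and Wif1, Wnt6, Fzd4, Wnt10b and Fzd2 fell, where 6.32% of all genes were called higher and 4.21% lower. The median over the members was -0.41, against -0.04 over all genes. The 65 genes of the WT stock read a median of 12.88 and 12.85 in WT MEFs alone and 12.24 and 12.24 after co-culture. The part of D2A1 RNA in the falls of members was not tested. Wif1, the Wnt-binding inhibitor, went from 9.04 and 8.89 to 6.90 and 6.78, a fall of 2.12 ± 0.20 (limma, adjusted p = 4.89e-05) that was 2.14 on slide A and 2.11 on slide B. Wnt6 went from 8.0 and 8.29 to 7.03 and 7.17 (-1.05 ± 0.20, adjusted p = 0.00616). Fzd4, the receptor for norrin and for several Wnts, went from 13.10 and 12.81 to 11.92 and 11.96 (-1.01 ± 0.18, adjusted p = 0.00484). Wnt10b (-0.75 ± 0.19), Fzd2 (-0.60 ± 0.15) and Wnt10a (0.51 ± 0.13) moved by less.

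Wnt7b was the member that rose most in WT MEFs, from 5.46 and 5.59 to 7.04 and 7.29 (1.64 ± 0.13, limma, adjusted p = 1.34e-05). Its gain amounted to 42.6% and 54.9% of the level of D2A1 cells grown alone, where genes typical of D2A1 cells had gained a median of 33.5% and 32.2%, with quartiles of 25% and 48.3% on A and 19.5% and 50.6% on B. Fzd6, the other member well above the MEF level in D2A1 cells, was 10.40 and 10.49 in these MEFs after 9.39 and 9.82, a gain of 26.4% and 30.2% of the D2A1 level, and did not pass. Epithelial markers in the same arrays summed to 74300 to 85600, against 1340 to 1500 in WT MEFs alone and 92900 to 96900 in D2A1 cells alone. Of the 9 epithelial markers tested, 3 were called higher than in WT MEFs alone and 2 lower. Their median difference was 0.25, so the sum does not stand for the list as a whole. The part of D2A1 RNA in the Wnt7b rise was not tested.

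With the slide as a block, 12 members changed in WT MEFs, the 7 above and Wnt4 (-0.89), Fzd5 (-0.50), Wnt11 (-0.56), Dkk2 (0.53) and Fzd6 (0.84). Fitting the 8 MEF arrays alone gave 14, adding among others Rspo3 (-0.91, adjusted p = 0.00127) and Wnt5a (-0.88, adjusted p = 0.000984). On the 12 sound scanner arrays scaled to the 75th percentile, 1 of the 7 calls was kept, that of Wnt7b, and Wif1 fell by 2.34 with an adjusted p of 0.0533; with normexp those of Wnt7b, Wif1 and Wnt6 were kept. Leaving out 1 array left 4 calls without WT with D2A1 B and 3 without each of the remaining arrays. The calls of Fzd2, Wnt10a and Wnt10b ended without any of them (adjusted p = 0.0656 to 0.222), that of Wnt6 without WT with D2A1 A or WT alone B (0.0592 and 0.07) and that of Fzd4 without WT alone A (0.0513).

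In null MEFs 1 member changed with co-culture, where 2.82% of all genes were called higher and 0.333% lower. Fzd9, a Frizzled known from brain and bone, fell from 8.57 and 8.60 to 7.61 and 7.78 (-0.89 ± 0.16, limma, adjusted p = 0.00851). At an unadjusted p under 0.05 there were 4 members higher and 3 lower. The Fzd9 call was lost without null with D2A1 A, null alone A or null alone B (adjusted p = 0.059 to 0.0753). With the slide as a block a second member passed, Wnt11 (-0.52, adjusted p = 0.0339). On the scanner arrays scaled to the 75th percentile the second was Wnt7b, which was higher by 1.66. Dkk3 read 4.83 higher than alone on slide A and 0.41 lower on slide B, and Sfrp2 3.67 higher and 0.83 lower. Neither passed with both arrays. Using only the A array of co-cultured null MEFs, 6 members were called, Dkk3, Rspo1, Wif1, Dkk2 and Lgr5 among them, all 5 of which were higher in WT than in null MEFs. Using only the B array, none of the 33 was called, with 3 at an unadjusted p under 0.05.

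The difference between the 2 responses was tested directly. It passed for 4 members, 1 more positive and 3 more negative in WT MEFs, where 1.96% and 1.06% of all genes were called in these directions. Wif1 fell by 2.12 in WT MEFs and differed by 0.70 ± 0.20, not a call, in null MEFs, where it was not well above background alone (difference of the responses -2.82 ± 0.28, limma, adjusted p = 0.000365). Wnt7b gave 1.22 ± 0.19 (adjusted p = 0.00511), Fzd4 -1.22 ± 0.26 (0.0303) and Wnt6 -1.30 ± 0.28 (0.0323). Wnt7b had gained 42.6% and 54.9% of the D2A1 level in WT MEFs, against 7.09% and 10.1% in null MEFs. Genes typical of D2A1 cells had gained a median of 33.5% and 32.2%, against 5.86% and 6.89%. The part of D2A1 RNA in these differences was not tested. Neither Wif1 nor Wnt6 was well above background in null MEFs grown alone, so a fall there could not have been measured. Without the A array of co-cultured null MEFs Wif1 gave -2.51 (adjusted p = 0.000949), Wnt7b 1.16 (0.0222), Fzd4 -1.44 (0.0194) and Wnt6 -1.01, which did not pass (0.0725). The call of Fzd4 was lost without any 1 of 6 of the 8 MEF arrays (0.051 to 0.131; it held without WT alone B and without null with D2A1 A), and that of Wnt6 without any 1 of 7 of them (0.0542 to 0.142; it held without null with D2A1 B). Without the B array 7 members were called, among them Dkk3 (-5.59), Rspo2 (-1.26), Rspo1 (-1.23) and Lgr5 (-0.92). Leaving out 1 of WT with D2A1 A or B, WT alone A, or null alone A or B left 2 calls. On the sound scanner arrays none of the 33 passed with the 75th percentile (limma, 10 at an unadjusted p under 0.05), and with normexp 3 passed, Wif1 from among the 4 (-1.93, adjusted p = 0.0177). For Dkk3 and Sfrp2 the difference of the responses was -2.98 ± 1.67 and -2.26 ± 1.89, which did not pass.

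**Figure D3:**
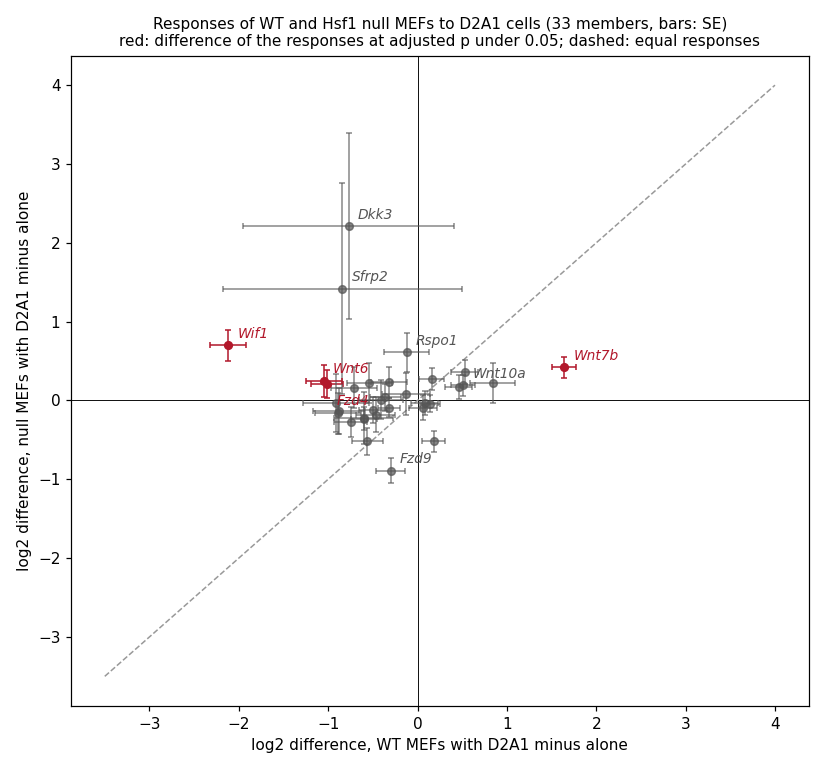
Log2 change with co-culture in null MEFs (vertical axis) against that in WT MEFs (horizontal axis) for the 33 tested members, bars SE; the dashed line marks equal responses. Wif1, Wnt6, Fzd4 and Wnt7b (red) passed the test of the difference; Dkk3 and Sfrp2 lie high, at 2.21 and 1.42 in null MEFs, with long bars from an SE that pools the spread of all 7 groups.

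In D2A1 cells sorted from co-culture with WT MEFs 14 members changed from D2A1 cells alone, 13 higher and Fzd9 lower, where 7.04% of all genes were called higher and 4.76% lower. Of the 11 ligands tested 5 rose (Wnt4, Wnt5a, Wnt5b, Wnt9a and Wnt11), of the 3 R-spondins 2 (Rspo1 and Rspo3), of the 12 receptors 2 (Fzd1 and Fzd8), and of the 7 antagonists 4 (Dkk2, Dkk3, Sfrp1 and Wif1). The median over the members was 0.35 and over all genes -0.04. In the same cells 14 of 15 fibroblast markers were called higher, with a median difference of 2.93. The markers summed to 449000 to 467000, against 253000 to 290000 in D2A1 cells alone, where S100a4 made up most of the sum.

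Dkk3 was 4.81 and 5.80 in D2A1 cells alone and 10.95 and 10.99 after co-culture with WT MEFs, at least 50.7-fold higher (limma, adjusted p = 0.0112). Rspo3 went from 5.42 and 5.17 to 8.71 and 8.85, at least 11.2-fold higher, Rspo1 from 4.89 and 4.81 to 7.15 and 7.31, at least 5.02-fold higher, and Fzd8 was at least 4.33-fold higher. Sfrp1 and Dkk2 were at least 2.13-fold and 2.09-fold higher (adjusted p = 0.00121 and 0.00128). Wnt5a went from 6.12 and 6.38 to 8.5 and 8.53 (2.27 ± 0.29, adjusted p = 0.000705), Fzd1 rose by 2.20 ± 0.33, Wnt5b by 1.77 ± 0.27 and Wnt4 by 1.60 ± 0.26. In none of these 10 did the D2A1 arrays reach the level of the co-cultured WT MEFs. Sfrp2 was 11.89 and 12.19 after co-culture and did not pass (4.42 ± 1.34, adjusted p = 0.0592), with 9.64 on the B array of D2A1 cells alone.

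Set against the level of co-cultured WT MEFs on a linear scale, 9 of the 13 members that rose had gained 3.84% to 8.12%. These 9 were Dkk2, Sfrp1, Wnt5b, Fzd8, Fzd1, Wnt5a, Rspo1, Rspo3 and Dkk3. The 145 fibroblast-typical genes had medians of 7.54% and 7.40%, with quartiles of 5.98% and 9.41% on A and 6.34% and 9.27% on B. Dkk2, Sfrp1, Wnt5a, Rspo1 and Rspo3 lay below the lower quartile on both slides, and Fzd8 on slide A. The gains of Wnt4 (24.8% and 18.6%), Wnt9a (16.8% and 27.7%), Wnt11 (55.3% and 68.0%) and Wif1 (48.9% and 84.0%) were larger shares. Against WT MEFs grown alone, the median of the fibroblast-typical genes was 4.69% and 4.73%, and these 4 had gained 13.5% and 10.1%, 18.8% and 30.8%, 37.5% and 46.1%, and 11.2% and 19.3%. The MEFs that these D2A1 cells were grown with had been treated with mitomycin and their levels are not known, and the part of MEF RNA in each rise was not tested.

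Wnt11, a ligand of the beta-catenin-independent branch, was 6.52 and 6.58 in D2A1 cells alone and 7.54 and 7.69 after co-culture with WT MEFs (1.07 ± 0.17, limma, adjusted p = 0.00279). These 2 arrays lay above both arrays of co-cultured WT MEFs (7.29 and 7.47), and below WT MEFs grown alone (7.88 and 8.0). On the 12 sound scanner arrays, where D2A1 alone has only its B array, Wnt11 differed by 0.91 (adjusted p = 0.398) with scaling to the 75th percentile and by 0.35 (0.758) with normexp, so its call was lost there. Wif1 was not well above background in D2A1 cells alone (5.18 and 5.15) and 6.52 and 7.05 after co-culture, at least 3.08-fold higher, and with normexp it differed by 0.93 (0.0785). Wnt9a was 8.77 and 8.71, then 9.15 and 9.36 (0.51 ± 0.14, adjusted p = 0.0433).

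Fzd9 was the only member that fell in D2A1 cells with both partners. It was 8.59 and 8.65 alone, 8.01 and 7.91 with WT MEFs (-0.66 ± 0.16, limma, adjusted p = 0.0208) and 7.67 and 7.24 with null MEFs (-1.17 ± 0.16, adjusted p = 0.000524). The 3 groups did not overlap. Both contrasts share the D2A1 alone arrays. MEFs of both genotypes from co-culture read 7.54 to 7.78. Leaving out any 1 of the 4 arrays ended the call with WT MEFs for Fzd9 (adjusted p = 0.0661 to 0.108) and for Wnt9a (0.067 to 0.219), and that of Dkk3 was lost without D2A1 with WT A, D2A1 with WT B or D2A1 alone A (0.057 to 0.0735). On the scanner arrays Dkk3 and Sfrp1 were also lost with both scalings (Dkk3 7.32 and 3.71, Sfrp1 2.72 and 0.61).

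**Figure D4:**
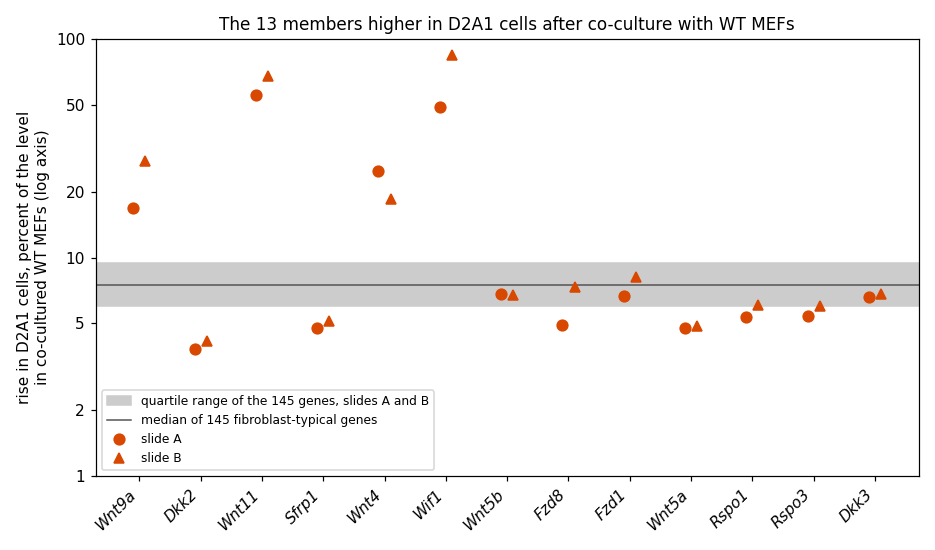
Gain of each of the 13 members called higher in D2A1 cells after co-culture with WT MEFs, as a percent of the linear level in co-cultured WT MEFs (vertical axis, log scale; circles slide A, triangles slide B; members ordered by their log2 difference). The line and grey band show the median and quartiles of 145 fibroblast-typical genes. Wnt9a, Wnt11, Wnt4 and Wif1 lie above the band, with Wif1 at 48.9% and 84.0%. Dkk2, Sfrp1 and Wnt5a lie below it on both slides, and Rspo1, Rspo3 and Fzd8 on slide A.

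With null MEFs 9 members changed in D2A1 cells, 7 higher and 2 lower, where 10.1% and 9.61% of all genes were called in these directions and the medians were 0.04 and -0.09. Rspo3 went from 5.42 and 5.17 to 9.09 and 10.68, at least 24.1-fold higher (limma, adjusted p = 1.18e-05), and Fzd8 was at least 5.71-fold higher. Wnt5a (3.01 ± 0.29), Fzd1 (2.85 ± 0.33), Wnt5b (2.32 ± 0.27), Wnt4 (1.42 ± 0.26) and Fzd4 (0.77 ± 0.18) were higher, and Fzd6 (-0.81 ± 0.25) was lower as well as Fzd9. The B array was the higher for all 7 that rose, as it was for the fibroblast-typical genes (24.9% against 9.76%). Rspo3 had gained 4.73% and 15.0%, Wnt5a 11.9% and 32%, and Fzd8 19.9% and 47.1% of the level of co-cultured null MEFs. For Fzd1 the gains were 7.86% and 21.2%, for Wnt4 14.4% and 41.9%, for Wnt5b 3.52% and 8.44% and for Fzd4 7.28% and 13.6%. Quartiles of the fibroblast-typical genes were 6.1% and 14.5% on A and 17.7% and 34.7% on B. Rspo3 and Wnt5b lay below these ranges on both slides and Fzd8 above them. Dkk3 stayed at 5.08 and 5.60 and Rspo1 at 5.08 and 5.33, and neither passed. Fzd4 did not pass without D2A1 with null B or D2A1 alone A (adjusted p = 0.0835 and 0.11), nor Fzd6 without either null-partnered array or D2A1 alone B (0.125 to 0.243).

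Between the partners, 7 members were higher in D2A1 cells grown with WT than with null MEFs, and none was lower (limma), where 4.12% of all genes were called higher and 5.39% lower. At an unadjusted p under 0.05, 13 were higher and 3 lower. The 7 were Dkk3 (10.95 and 10.99 against 5.08 and 5.60, 5.62 ± 1.18, adjusted p = 0.0132), Sfrp2 (11.89 and 12.19 against 5.70 and 7.24, 5.57 ± 1.34, adjusted p = 0.026), Rspo1, Wif1, Dkk2, Sfrp1 and Fzd3. Rspo1 was at least 4.08-fold higher, Wif1 and Dkk2 each at least 2.35-fold and Sfrp1 at least 1.68-fold. Of these, all but Fzd3 were also higher in WT than in null MEFs grown alone, while Fzd3 (9.86 and 9.78 against 9.37 and 9.28, 0.49 ± 0.13, adjusted p = 0.0353) was lower in WT MEFs. With WT MEFs, Sfrp2 had gained 3.67% and 4.64% of the level of co-cultured WT MEFs, and Fzd3 31.0% and 20.2%. Dkk3 had gained 6.59% and 6.79%, Rspo1 5.33% and 6.1%, Dkk2 3.84% and 4.16%, Sfrp1 4.76% and 5.14%, and Wif1 48.9% and 84.0%. The part of MEF RNA in these differences between partners was not tested. On the 12 sound scanner arrays, with 1 array of null-partnered D2A1 cells, 2 of the 7 calls were kept with the 75th percentile and none with normexp, while Rspo3 (-2.10 and -1.80), Wnt5a (-1.63 and -1.44), Fzd1 (-1.41 and -1.16) and Fzd8 (-0.85 and -0.57) were called lower there. The same 4 and Wnt5b (-1.04) were called lower in the deposited values when D2A1 with null A was left out. The calls of Sfrp2 and Fzd3 ended without any 1 of the 4 arrays (adjusted p = 0.0528 to 0.145), that of Dkk3 without either WT-partnered array or D2A1 with null A (0.0576 to 0.0693), and that of Sfrp1 without D2A1 with WT B or D2A1 with null A (0.0651 and 0.0696). The count was 3 without D2A1 with WT B.

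The rest of the pathway was read from 3 lists. Of 20 transducers and nuclear factors, all tested, 6 were higher and 1 lower in WT than in null MEFs grown alone, with a median of 0.20, where 15.9% of all genes were called higher and 17.9% lower. Lef1, the nuclear partner of beta-catenin, was higher by 1.55 ± 0.25, Ctnnbip1, an inhibitor of beta-catenin binding, by 1.1 ± 0.11, and the kinase Csnk1a1 by 1.14 ± 0.16. In D2A1 cells grown with WT MEFs 3 were higher and none lower, where 7.04% and 4.76% of all genes were called: Lef1 (1.59 ± 0.25), Tcf7l1 (1.11 ± 0.26) and Ctnnbip1 (0.58 ± 0.11). Grown alone, D2A1 cells differed from WT MEFs by -4.67 ± 0.25 in Lef1 and -3.98 ± 0.26 in Tcf7l1, and the part of MEF RNA in these values was not tested.

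Of 16 tested regulators of Wnt secretion and the cell surface, 8 were higher and 3 lower in WT than in null MEFs alone, against the same 15.9% and 17.9% of all genes. Gpc3, a glypican that holds Wnts at the surface, was higher by 2.75 ± 0.22, Kremen1, a Dickkopf receptor, by 1.29 ± 0.12 and Ryk, a Wnt receptor, by 1.23 ± 0.15. Ror2, a receptor of Wnt5a, differed by -7.52 ± 0.30 in D2A1 cells against WT MEFs and read higher in D2A1 cells after co-culture with WT (3.48 ± 0.30) and null MEFs (4.76 ± 0.30). The part of MEF RNA in the higher Ror2 values was not tested. In WT MEFs with D2A1 cells, Apcdd1, a membrane inhibitor of the pathway that was 2.32 ± 0.19 higher in D2A1 cells than in WT MEFs, rose by 1.14 ± 0.19, Porcn, the enzyme that acylates Wnts, rose by 0.41 ± 0.11, and Gpc4 and Kremen1 fell by 0.84 ± 0.18 and 0.50 ± 0.12. The part of D2A1 RNA in these changes was not tested.

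Of 16 tested targets and planar polarity genes, 8 were higher and 3 lower in WT than in null MEFs alone, so that the share lower was near the 17.9% over all genes. Ccnd1, which encodes cyclin D1, was 4.56 ± 0.10 higher, Daam2 2.67 ± 0.13 and the pathway inhibitor Nkd2 2.13 ± 0.15 higher, and Celsr1 5.61 ± 0.27 lower. With D2A1 cells Ccnd1 rose by 0.82 ± 0.10 in WT and by 3.22 ± 0.10 in null MEFs, a difference of -2.40 ± 0.15 (limma, adjusted p = 1.39e-05), and Ccnd1 was 5.50 ± 0.10 higher in D2A1 cells than in null MEFs. The part of D2A1 RNA in the Ccnd1 rises was not tested.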

How the data were processed

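RNA of 14 samples was hybridised to Agilent arrays of design 028005, per the file headers. Spot intensity values in the deposited scanner files were extracted and background-subtracted by Agilent Feature Extraction, per the file headers. Its version is 10.1.1.1 there and 9.1 in the submitters' processing notes. The authors' deposited table of log2 values holds 36553 lines, 140 of them control spots. How it was scaled is not given in the sources used here; array medians lay between 6.33 and 6.40. For genes with several probes it follows the mean over probes.

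The log2 values were used, because the scanner files of 2 arrays were faulty (36.8% and 32.1% of spots flagged as outliers, 0.246% to 5.74% on the other 12). The deposited values of these 2 arrays, D2A1 with null MEFs A and D2A1 alone A, could not be checked against scanner intensities. Every comparison of a D2A1 group uses at least 1 of them. The design had named the scanner intensities as an alternative, and these were run on the 12 sound arrays. Genes well above background on both arrays of at least 1 group were tested; where flags were not used the other array decided. A mean per group was fitted with limma 3.58.1 (lmFit and eBayes, R 4.3.3) over all 7 groups, with Benjamini-Hochberg adjustment within each comparison. Where a group was not well above background, the fold is a lower bound against the gene's own value there or, if higher, the lowest value among genes flagged well above background on the array.

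Same-letter arrays share a slide. Their deviations from the group means correlated between groups by 0.0920 to 0.599 (median 0.298 over 21 pairs of groups), so the slide was also fitted as a replicate block.

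Every member could be named: those that passed are given with their differences, lower bounds or, for some receptors, a range, the others by count, range or, for family neighbours, values. Alternatives were the slide block, no filter, quantile normalization, 2 scalings of the scanner arrays, own cell type only and each array left out. The members, the 3 pathway lists and the marker lists were chosen with earlier results of these data known. A promoter match of 1 member is not reported here.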

Additional observations from a re-analysis of the deposited data

Results flagged for a closer look

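Responses that differed between WT and null MEFs, by a test of the difference itself, were those of Wif1 (-2.82, log2), Wnt6 (-1.30), Fzd4 (-1.22) and Wnt7b (1.22). Wif1, Wnt6 and Fzd4 fell and Wnt7b rose in WT MEFs, and none of the 4 passed in null MEFs in the deposited values. Wif1 and Wnt6 were not well above background in null MEFs alone. On the scanner arrays scaled to the 75th percentile Wnt7b was called higher in null MEFs (1.66). Its difference of the responses was not called with either scaling (0.56 to 0.92). The part of D2A1 RNA in these 4 differences was not tested. D2A1 cells differed by their partner, WT minus null, in Dkk3 (5.62), Sfrp2 (5.57), Rspo1 (2.03), Wif1 (1.24), Dkk2 (1.23), Sfrp1 (0.75) and Fzd3 (0.49). Of these 7 calls, 2 were kept on the sound scanner arrays with the 75th percentile and none with normexp. The part of MEF RNA in these 7 differences was not tested.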

How the results depend on the processing

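Over the 10 comparisons 129 calls were made on members. None changed direction under any alternative, 85 passed in all of them and 44 were lost in at least 1. Losses were most frequent on the 12 sound scanner arrays (31 with the 75th percentile, 30 with normexp), where D2A1 cells alone and with null MEFs have 1 array each, assumed to vary like the other groups; the cause was not tested. There the members called in D2A1 cells with WT MEFs numbered 9 with the 75th percentile instead of 14, those in null MEFs 2 instead of 1, and those in the difference of the MEF responses 0 instead of 4 (limma, 10 at an unadjusted p under 0.05). The replicate block gave 12 instead of 7 in WT MEFs and 2 instead of 1 in null MEFs, and own cell type only 14 instead of 7 in WT MEFs. Leaving out 1 array gave 3 to 9 calls between the D2A1 partners, 3 to 4 in WT MEFs, 0 to 6 in null MEFs (3 or 4 at an unadjusted p under 0.05 where there were 0) and 2 to 7 for the difference of the responses. With the 75th percentile the median difference over all genes was 0.28 and 0.26 for D2A1 cells against null and WT MEFs (0.07 and 0.08 in the deposited values) and -0.21 for D2A1 cells with null MEFs against alone (-0.09). Single probes of Fzd2, Fzd5, Fzd7, Lrp6 and Wnt16, an alternative chosen after seeing the data, kept the direction of every call on these genes. Over all genes, own cell type only gave 1275, 2243 and 920 calls instead of 3052, 5096 and 2457 in the 3 comparisons of D2A1 groups.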
